A study of Mus musculus with 6 samples.

Results

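The genes of the cytosolic ribosomal proteins were examined in the embryonic small intestinal epithelium with and without Tcf7l1. Members were chosen by symbol, as names that begin with Rpl or Rps and a number, or Rplp0, Rplp1, Rplp2 and Rpsa. S6 kinase genes, listed pseudogenes and RIKEN clones were left out. The rule found 86 members among the 23366 genes of the count tables. Of these, 33 encode small-subunit and 52 large-subunit proteins or their paralogues, and the last, Rps19bp1, matches by name only, since it encodes a protein that binds Rps19.

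Ribosomal proteins are assembled with ribosomal RNA in the nucleolus into a small subunit, which reads the mRNA, and a large subunit, which joins the amino acids. Their mRNAs are among the most abundant of a growing cell, and most begin with a run of pyrimidines, the terminal oligopyrimidine (TOP) tract, through which mTOR signalling sets their translation. The proteins are needed in near-equal amounts, and most of their genes have left many intronless pseudogene copies across the mouse genome.

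The study removed Tcf7l1, a transcriptional repressor of WNT target genes, from the gut epithelium, and the comparison here asks how the ribosomal protein mRNAs differed after that loss. RNA was sequenced from 500 sorted EpCAM-positive cells per library, taken from the small intestine of mouse embryos at E13.5, with 3 mutant libraries of the genotype Shh-cre-egfp:Tcf7l1 lox/lox and 3 libraries labelled wild type. In the mutant, Cre was made from the Shh locus, active in the gut epithelium, so the mutants also carried an altered Shh allele, and no group carried Cre without the floxed alleles. The labels give neither the sex nor the litter of the embryos, and nothing says how many embryos gave each library, so p-values measure the spread between these libraries.

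The total counts per library lay between 18216537 and 20397278. Tcf7l1 fell from 438 ± 64.1 to 49.1 ± 21.1 normalized counts (SD, n = 3 each), a log2 fold change of -3.16 (SE 0.26, adjusted p = 4.2e-07 by the quasi-likelihood test of edgeR, Benjamini-Hochberg adjusted), and every mutant library lay below every wild type library. Shh fell as well, with a log2 fold change of -1.28. Xist had 0 counts in each wild type library and 229 to 424 in the mutants, so the sex of the embryos and the genotype cannot be told apart. All 10 epithelial markers were tested, with 7 below 0 and 3 above 0 in log2 fold change. Of those below, Cdh1, Krt18 and Cdx2 were called lower, while Epcam, Cldn4 and Cldn7 lay higher in every mutant library, with log2 fold changes of 0.25, 0.21 and 0.24. The summed level of the 10 was 9504 to 9672 CPM (library-scaled counts) for wild type against 8658 to 8796 for mutants. The 9 mesenchymal markers summed to 9.07 to 19.3 CPM (wild type) and 9.63 to 38.8 CPM (mutant), with none at 0 in all libraries. They did not go one way: wild type libraries held 74, 113 and 92 reads of Acta2 against 92, 161 and 442 in mutants, so that mutant library 3 stood apart, whereas Col3a1 (45, 40 and 11 against 8, 6 and 4 reads) was lower in all mutant libraries without passing the test (log2 fold change -2.21, adjusted p = 0.026, edgeR's quasi-likelihood test). Blood markers, 4 of 7 of them at 0 throughout, gave 1.08 to 1.77 and 0.261 to 0.512 CPM, endothelial markers, 3 of 4 at 0, 0 to 0.588 and 0 to 1.02 CPM, and the 4 neural crest markers 1.76 to 2.93 and 3.12 to 3.50 CPM. The part of these differences in the results on ribosomal protein genes was not tested.

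Gene copies bear on how these genes could be counted, because the authors kept only reads that mapped to 1 place. Where a read of 84 bases, the length sequenced, matches a pseudogene as well as its gene, it could be counted for neither. For the members that stood apart in the comparison, a coding stretch of 84 bases is therefore shown from the gene and from its closest copy. It is the coding stretch in which gene and copy differ most, so its differences are not typical of the whole gene. Sequences are from mouse build mm9, 5′ to 3′ on the strand of the gene or copy. Capitals mark the bases that differ, and the stretches of Rps3a1, Rpl35a and Rps24 are joined across an intron in the gene.
Rps3a1 gene, chr3:85942008-85942463, - strand: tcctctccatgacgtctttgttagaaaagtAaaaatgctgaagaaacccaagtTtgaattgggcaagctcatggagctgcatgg
Rps3a1 copy, chr14:88522918-88523001, - strand: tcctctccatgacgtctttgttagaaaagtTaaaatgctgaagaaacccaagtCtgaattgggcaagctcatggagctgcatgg
Rpl29 gene, chr9:106333684-106333767, + strand: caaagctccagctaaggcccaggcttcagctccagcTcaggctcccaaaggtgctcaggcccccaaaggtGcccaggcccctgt
Rpl29 copy, chr9:7752111-7752194, + strand: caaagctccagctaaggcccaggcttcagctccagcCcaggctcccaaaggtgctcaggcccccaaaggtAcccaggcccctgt
Rpl35a gene, chr16:33057579-33058798, + strand: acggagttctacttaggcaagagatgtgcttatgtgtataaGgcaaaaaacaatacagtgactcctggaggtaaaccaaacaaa
Rpl35a copy, chr6:48473631-48473714, + strand: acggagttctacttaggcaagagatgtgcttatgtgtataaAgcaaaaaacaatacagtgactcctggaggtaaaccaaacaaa
Rps24 gene, chr14:25311263-25312612, + strand: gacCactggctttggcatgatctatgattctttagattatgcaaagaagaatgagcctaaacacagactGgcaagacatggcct
Rps24 copy, chrX:76440589-76440672, + strand: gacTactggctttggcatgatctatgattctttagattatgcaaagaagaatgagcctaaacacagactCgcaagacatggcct
The gene and its copy differ at 2 positions in the stretches of Rps3a1, Rpl29 and Rps24 and at 1 position in that of Rpl35a. In Rpl38 even the stretch chosen in this way has 0 differences from the copy on chromosome 6, so a read from it could not be placed. The Rpl38 sequence is printed once for that reason, with the position in the gene.
Rpl38 gene, chr11:114533049-114533132, + strand: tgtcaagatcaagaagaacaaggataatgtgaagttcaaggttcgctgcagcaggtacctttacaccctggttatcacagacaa

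Of the 86 members, 82 passed the filter on low counts, among 12501 genes tested in all. The log2 fold change of mutant over wild type was above 0 in 76 of the 82, against 45.7% of all tested genes, and below 0 in 6. The median over the tested members was 0.27 (1.21-fold), with the middle of the distribution, from the first to the third quartile, between 0.22 and 0.33. Over all tested genes the median was -0.04 and the quartiles -0.38 and 0.20, so the members lay 0.32 above the median gene. No test was run on the set, and its genes share the same 6 libraries. In bulk RNA, a change in the makeup of the sorted cells and a change in RNA per cell cannot be told apart.

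A gene was called when its adjusted p was under 0.01, its log2 fold change at least 0.5 in size and its mean normalized count at least 50. By this rule 3 members were called higher (Rpl35a, Rps24 and Rpl38), beside 2.78% of all tested genes, and 2 were called lower (Rps3a1 and Rpl29), beside 5.83%. In either direction this made 5 members, beside 8.62% of tested genes. The share called higher was near that of all genes. Without the size limit, 22 members rose at an adjusted p under 0.01, beside 7.32% of tested genes, and 3 fell, beside 7.61%, the third being Rps18. At an adjusted p under 0.05 the counts were 52, beside 13.6% of tested genes, and 3, beside 15.1%. In 67 members all mutant libraries lay above all wild type libraries (20.8% of all tested genes), in 4 they all lay below (22.2%), and in 11 the groups overlapped.

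**Figure D1:**
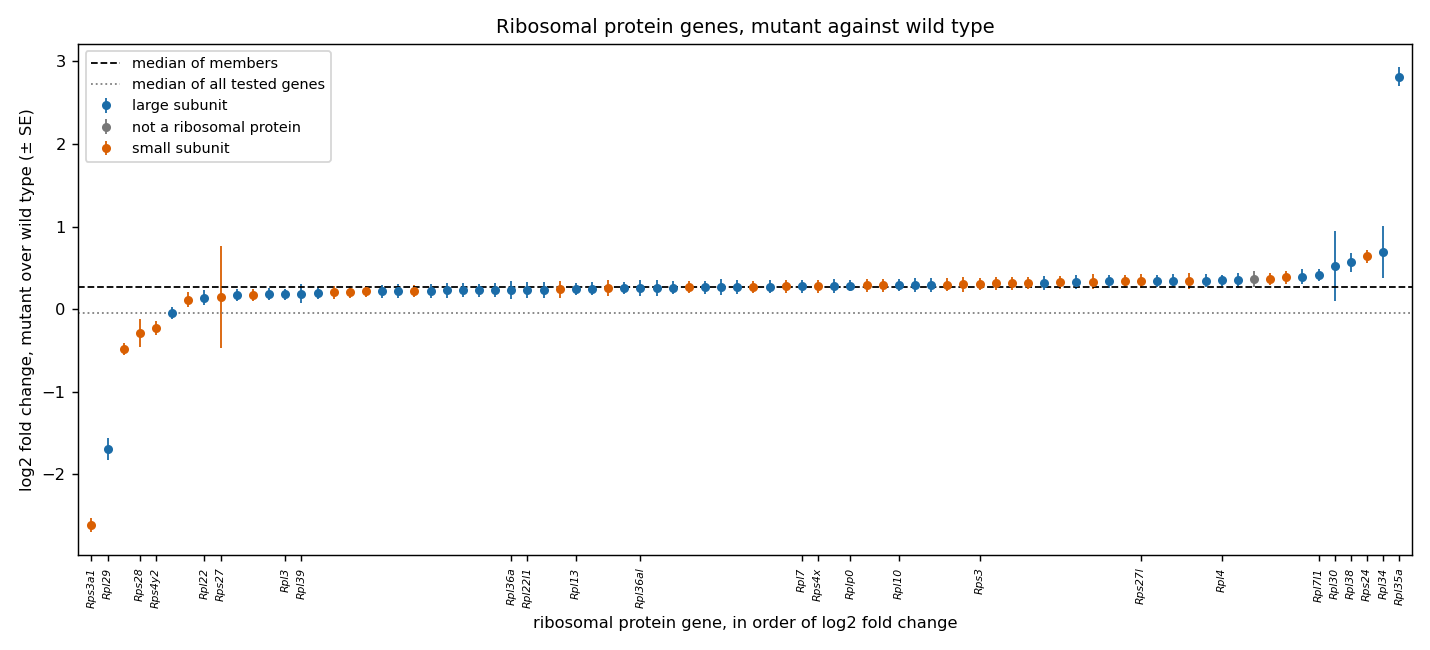
Log2 fold change of mutant over wild type (± SE, 3 libraries per group) of the 82 tested members, in order of size and coloured by subunit, with the names of the genes chosen by the naming rule. Most members lie close to the dashed line at the member median of 0.27, while Rps3a1 and Rpl29 lie far below it and Rpl35a far above.

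By subunit, the median log2 fold change was 0.28 in the small subunit and 0.26 in the large subunit. Above 0 lay 29 of 33 tested small-subunit and 46 of 48 large-subunit genes, beside 45.7% of all tested genes. At an adjusted p under 0.01, 9 small-subunit and 13 large-subunit genes rose, beside 7.32% of all tested genes.

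Counted by library, members took 2.20, 2.30 and 2.47% of the total count in wild type libraries 1 to 3 and 2.47, 2.68 and 2.51% in mutant libraries 1 to 3. Wild type library 3 lay next to the lowest mutant library, and the groups did not overlap by a narrow margin. The means were 2.32 ± 0.132% and 2.55 ± 0.114% (SD, n = 3 each), a ratio of 1.10, which came to 1.18 with TMM-normalized counts. With the 5 called members left out, the shares were 2.25 ± 0.127% and 2.51 ± 0.113%.

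The median member, set against its own mean over the 6 libraries, lay at a log2 ratio of -0.22, -0.19 and -0.01 in wild type and 0.07, 0.23 and 0.11 in mutant libraries. Here too wild type library 3 stood nearest to the mutants, and mutant library 2 was highest. Without wild type library 3 the member median rose to 0.36 and 58 members were higher at an adjusted p under 0.01, whereas without mutant library 2 these values were 0.22 and 3. Without wild type library 1 or 2 the count was 4 each, without mutant library 1 it was 5 and without mutant library 3 it was 6, against 22 with all libraries. The count of significant members therefore varied with single libraries far more than the direction did, which was above 0 in 76 or 77 members whichever library was left out. The share of all tested genes passing in these refits is not given here, so this variation cannot be read as particular to the members.

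**Figure D2:**
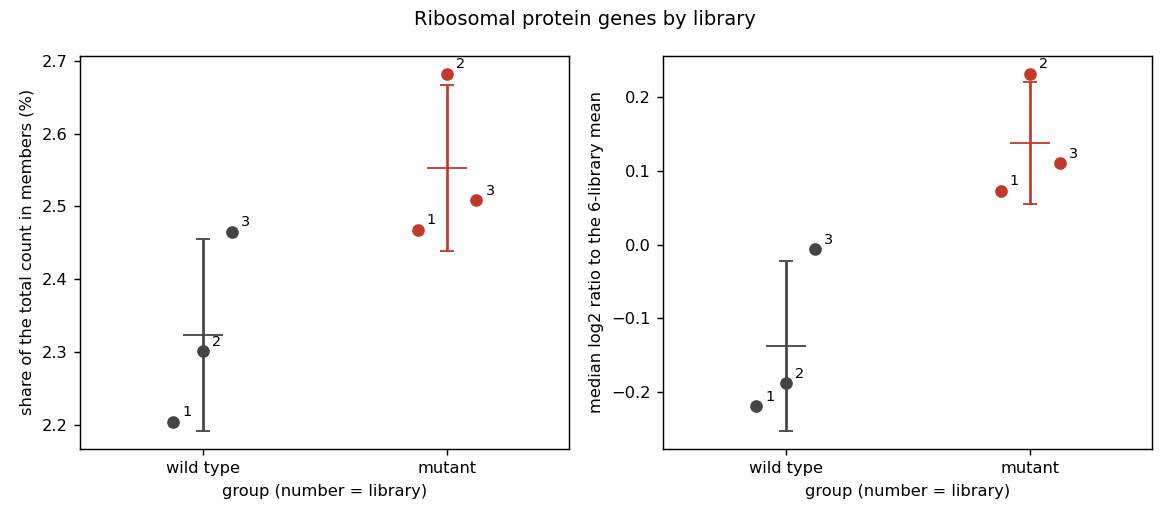
Share of the total count in members (left, %) and median log2 ratio of members to their 6-library mean (right), by library, with the mean and SD of each group (n = 3). Mutant libraries lie above wild type libraries in both panels, and wild type library 3, at 2.47% and -0.01, lies nearest to them.

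Scaling and gene length bore on the size of this difference. With library size as the only scaling, the median of all tested genes moved to -0.15 and that of the members to 0.17, and the gap between them stayed at 0.32. Members are short, with a median exon length of 1434 bases against 3676 over all tested genes, and fold changes fell with length across genes (Spearman rho -0.21, n = 11875 genes, which are not independent). After a loess correction for length the member median was 0.17 and the gap 0.16, with 68 members above 0. Then 13 members were higher at an adjusted p under 0.01, and the share of all tested genes passing in that fit is not given here. Among named members Rpl22l1 and Rps27 turned to log2 fold changes of -0.039 and -0.16.

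Rps3a1, which encodes a small-subunit protein at the platform of the ribosome, differed most downward. The gene lies at chr3:85941862-85946624 on the minus strand of mm9 (ENSMUSG00000028081.6, 6 exons). It had 9318, 9710 and 11287 normalized counts in wild type libraries and 1614, 1706 and 1648 in mutant libraries. The mutant values lay close together and far below every wild type value. The log2 fold change was -2.61 (SE 0.08, adjusted p = 2.6e-12, edgeR's quasi-likelihood test). Among all member counts Rps3a1 held 2.26 to 2.36% in wild type libraries, against 0.31 to 0.33% in mutants. The related genes Rps3a2 and Rps3a3 were not analysed here.

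Rpl35a, a large-subunit protein gene mutated in some patients with Diamond-Blackfan anaemia, differed most upward. It lies at chr16:33056539-33060275 on the plus strand (ENSMUSG00000060636.7, 5 exons). Its normalized counts were 223, 230 and 246 in wild type and 1522, 1755 and 1639 in mutant libraries, with no overlap. The log2 fold change was 2.81 (7.02-fold, SE 0.12, adjusted p = 7.0e-11, edgeR's quasi-likelihood test). With a minimum mean RPKM of 50, computed here over Gencode M1 exon lengths, in place of the minimum count, Rpl35a was no longer called. Its mean RPKM was 13.6 over an exon length of 3526 bases, and these RPKM values may not be on the study's scale. Per kilobase of the transcript chosen here, which has 491 bases, its level rose from 475 to 3338 normalized counts, while that of Rps3a1 fell from 10343 to 1695.

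Rpl29, which encodes a small basic protein of the large subunit, was the other gene called lower (chr9:106331785-106333899, plus strand, ENSMUSG00000048758.7, 4 exons). It had 1010, 1032 and 1208 normalized counts in wild type and 332, 370 and 303 in mutant libraries. The groups were well apart, and the log2 fold change was -1.69 (SE 0.13, adjusted p = 1.8e-07, edgeR's quasi-likelihood test). Its mean RPKM was 45.6, so its call too was lost under the RPKM minimum.

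Rps24, another Diamond-Blackfan gene, encodes a small-subunit protein needed to process the small ribosomal RNA (chr14:25309903-25315368, plus strand, ENSMUSG00000025290.9, 6 exons). Its counts were 2391, 2424 and 2766 in wild type and 3794, 4013 and 3993 in mutant libraries. Every mutant value was higher, with a log2 fold change of 0.64 (SE 0.08, adjusted p = 3.2e-05, edgeR's quasi-likelihood test). After the length correction it was 0.44, below the size limit of the call.

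Rpl38, a large-subunit protein required for normal patterning of the mouse axial skeleton, lies at chr11:114529838-114533645 on the plus strand (ENSMUSG00000057322.6, 5 exons). It had 546, 567 and 607 normalized counts in wild type and 800, 891 and 856 in mutant libraries. The groups did not overlap, and the log2 fold change was 0.57 (SE 0.12, adjusted p = 0.0022, edgeR's quasi-likelihood test). Its call was lost with library size as the only scaling (0.46), after the length correction (0.30) and without wild type library 1 (0.53), wild type library 2 (0.56), mutant library 2 (0.53) or mutant library 3 (0.56).

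Just outside the rule lay Rps18, a protein of the head of the small subunit, with 3306, 3304 and 3675 normalized counts in wild type and 2385, 2562 and 2419 in mutant libraries. All mutant values were lower, with a log2 fold change of -0.48 and an adjusted p of 3.4e-04 in edgeR's quasi-likelihood test. Also below 0, without passing the test, were Rps28 (-0.29), Rps4y2 (-0.23) and Rpl15 (-0.05).

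**Figure D3:**
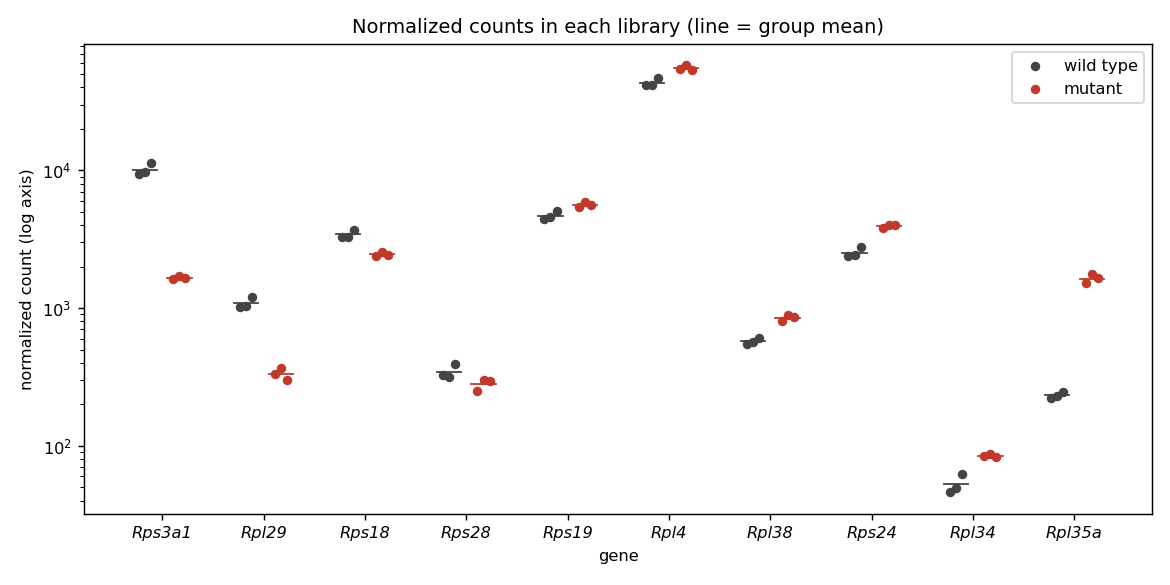
Normalized counts (log axis) of 10 members in each of the 6 libraries, with lines at the group means. Rps3a1 and Rpl29 lie far lower and Rpl35a far higher in all mutant libraries, while Rps19 and Rpl4 show the small shift of most members.

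The members with the highest counts had log2 fold changes from 0.18 to 0.35, on both sides of the member median of 0.27. Of these, Rpl4 lay above the third quartile of the members (0.33) and Rpl3 below the first (0.22). Rpl4, whose protein lines the exit tunnel of the large subunit, had 41319, 41726 and 46788 normalized counts in wild type and 53920, 57730 and 53647 in mutant libraries. It rose with a log2 fold change of 0.35 (adjusted p = 0.0011, edgeR's quasi-likelihood test) and alone held 10.04% of the member counts in wild type library 1. Rplp0, the base of the stalk that recruits elongation factors, rose by 0.28 (adjusted p = 0.0071), and Rps3, at the entry of the mRNA channel, by 0.30 (adjusted p = 0.0055). Rpl13 had a log2 fold change of 0.24 (adjusted p = 0.018) and Rpl3, which lies near the catalytic centre, of 0.18 (adjusted p = 0.053), both from the same test. Per kilobase of transcript the wild type levels were 30435 normalized counts for Rpl4, 20356 for Rplp0, 16756 for Rpl13, 12434 for Rpl3 and 8049 for Rps3.

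At the other end were genes with few counts. Rps27, a small-subunit zinc finger protein, had 11, 17 and 13 normalized counts in wild type and 17, 18 and 11 in mutant libraries, which overlapped. Rpl30 had 35, 25 and 39 against 50, 50 and 42, and Rpl34 46, 49 and 63 against 85, 87 and 83. In neither did the groups overlap, yet with log2 fold changes of 0.52 and 0.69 both missed the test (adjusted p = 0.39 and 0.11, edgeR's quasi-likelihood test). Rpl26 had 0 counts in all libraries, and 65.7% of the 84-base windows of its transcript had an exact match elsewhere in the genome. This share was 53.2% in Rpl30 and 46.1% in Rpl34. Across the 81 tested members with a transcript, Spearman's rho between the share and the wild type count per kilobase was -0.05.

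Paralogues gave mixed levels. Rpl10l and Rpl39l, testis relatives of Rpl10 and Rpl39, had 0 counts throughout, and Rpl3l, the striated muscle relative of Rpl3, had 0 counts in wild type and 4, 3 and 3 in mutant libraries, at the limit of detection. Rps27l, a relative of Rps27 that p53 can induce, rose from 3178, 3203 and 3779 to 4043, 4641 and 4146 normalized counts (log2 fold change 0.34, adjusted p = 0.0082, edgeR's quasi-likelihood test). Rpl7l1 rose by 0.41 (adjusted p = 0.0012) and reached a call without wild type library 3 (0.50), and its relative Rpl7 had a log2 fold change of 0.28 (adjusted p = 0.016). Rpl22 and Rpl22l1, a pair in which the former protein can repress the latter, had log2 fold changes of 0.14 and 0.23, and neither passed the test. Rpl36a and Rpl36al stood at 0.23 and 0.25. Rps4x, on the X chromosome, had a log2 fold change of 0.28 and its autosomal relative Rps4y2 one of -0.23. The X-linked members Rps4x, Rpl39, Rpl10 and Rpl36a lay between 0.19 and 0.29, around the member median.

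Copies were common among all members, not only those that stood apart. Of the 81 tested members with a transcript in the annotation used, 65 had at least 1 copy elsewhere in mm9 that was 95% identical over 50% of the transcript, and the median share of 84-base windows with an exact match elsewhere was 53.2%. The shares were 64.3% in Rps3a1 (7 near-identical copies), 69.1% in Rpl29 (20), 66.4% in Rpl35a (15), 57.5% in Rps24 (6), 76.7% in Rpl38 (3) and 65.8% in Rps18 (6). All 6 of these lay above the member median, a comparison that was not tested. Rps27, with few counts, had 99.6%, and Rps12, with a wild type mean of 1323 normalized counts, had 97.9%.

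Across members, Spearman's rho between the share of matched windows and the fold change was -0.08 (n = 81 members, which share libraries), and it was -0.08 again between the share and the distance of a member from the member median. The 16 members without a near-identical copy had a median log2 fold change of 0.30 and the 65 with one 0.27. In the 12 members with under 10% of windows matched, log2 fold changes lay between -0.23 and 0.41, with a median of 0.29. Among these was Rps3, with 0% of windows matched and a log2 fold change of 0.30.

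**Figure D4:**
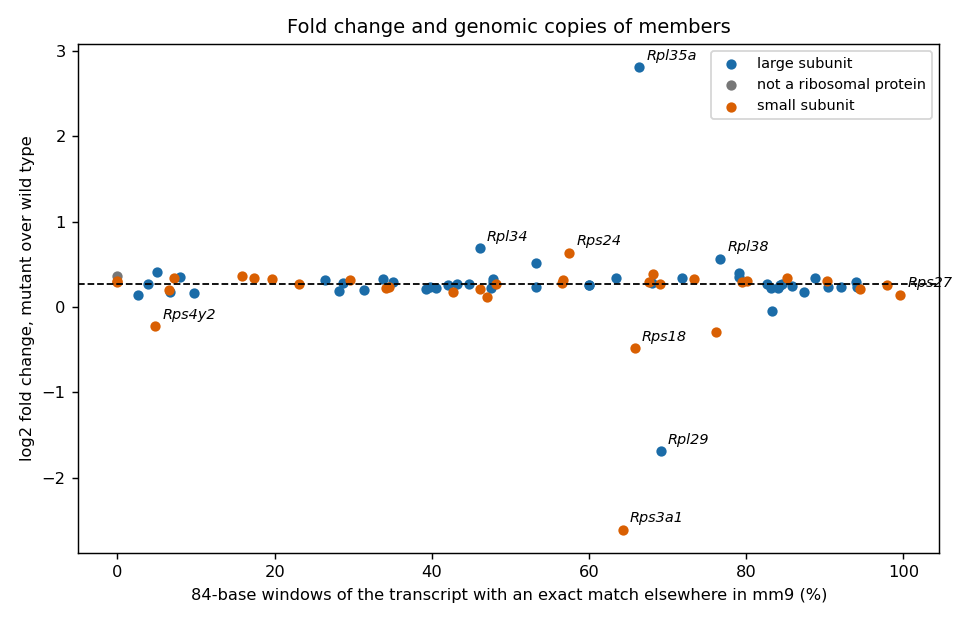
Log2 fold change of mutant over wild type against the share of 84-base windows of the transcript that match exactly elsewhere in mm9 (%), for 81 members. Members with 0% and with over 90% of windows matched lie alike near the dashed line at 0.27, and the called members lie between 57.5 and 76.7%.

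The start of the gene was examined for the TOP tract. A C followed by at least 4 pyrimidines, on the gene's strand and beginning from 5 bases before to 10 bases after the start, was found in 32 of 77 member starts (41.6%; 65 members matched in the RefSeq promoter table, build GRCm38.p6) and in 21.1% of all 32851 starts. Exactly at the start the shares were 16.9 and 2.51%. Windows of 30 bases around the start are shown for the called members except Rpl29, with the tract in capitals. Rpl29 was not among the genes chosen for display.
Rps24 start, chr14:24490668-24490697, + strand: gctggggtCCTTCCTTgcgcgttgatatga
Rpl38 start, chr11:114668570-114668599, + strand: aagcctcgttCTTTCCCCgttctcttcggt
Rpl35a start, chr16:33056472-33056501, + strand: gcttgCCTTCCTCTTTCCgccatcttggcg
Rps3a1 start, chr3:86142649-86142678, - strand: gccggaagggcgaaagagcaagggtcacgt
Rps24, Rpl38 and Rpl35a had a tract in the searched positions and Rps3a1 did not. Where a gene had several starts, a start with a tract was shown in preference. A member was counted as having a tract if any of its starts had it. The search saw only annotated starts, so a tract at another start would be missed. The median log2 fold change was 0.25 in the 31 tested members with a tract and 0.29 in the 30 without. This difference was not tested.

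Other genes of the same pathway had fold changes of similar size. Fau, which encodes a ribosomal protein fused to a ubiquitin-like sequence, and Gnb2l1 (Rack1), the signalling scaffold on the small subunit, rose with log2 fold changes of 0.37 and 0.31 (adjusted p = 0.0033 and 0.0055, edgeR's quasi-likelihood test). All 55 ribosome biogenesis genes listed were tested, 43 were above 0 and 12 below, and the median was 0.23. Of them 19 rose at an adjusted p under 0.01, beside 7.32% of all tested genes, and none fell, beside 7.61%. Only 2 were called, both higher, beside 2.78% of all tested genes called higher and 5.83% called lower. These were Nhp2, a protein of the box H/ACA particles that guide pseudouridylation (log2 fold change 0.55), and Nmd3, the export adaptor of the large subunit (0.51). The call of Nhp2 was lost without mutant library 2 (0.48), and that of Nmd3 without wild type library 1 (0.497), wild type library 2 (0.43) or mutant library 2 (0.49), while 8 genes of the list were called without wild type library 3. Ncl, the nucleolar protein nucleolin, rose from 34658 ± 1153 to 46449 ± 1716 normalized counts (SD, n = 3 each; log2 fold change 0.42).

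The 22 tested mRNAs with TOP tracts outside the ribosomal proteins, mainly translation factors, had a median of 0.24, with 20 above 0, 0 called and 6 higher at an adjusted p under 0.01, beside the same 7.32%. Among these were Eef1d (0.36) and Eif3e (0.35). The 13 p53 targets listed had a median of -0.25, with 1 called higher (Pmaip1, a pro-apoptotic protein, 0.85) and 1 called lower (Trp53inp1, -1.31), beside 2.78 and 5.83% of all tested genes. Of the 10 Diamond-Blackfan genes listed, 9 were tested and all 9 lay above 0, with a median of 0.33. The list was a subgroup chosen by hand and may not be complete. Above 0 lay 76 of all 82 tested members, and none of the 6 members below 0, such as Rps28 and Rpl15, was on it. Among these 6 rose at an adjusted p under 0.01 (7.32% of all tested genes), of which Rps24 and Rpl35a passed the full rule (2.78%), and the 1 untested gene was Rpl26.

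**Figure D5:**
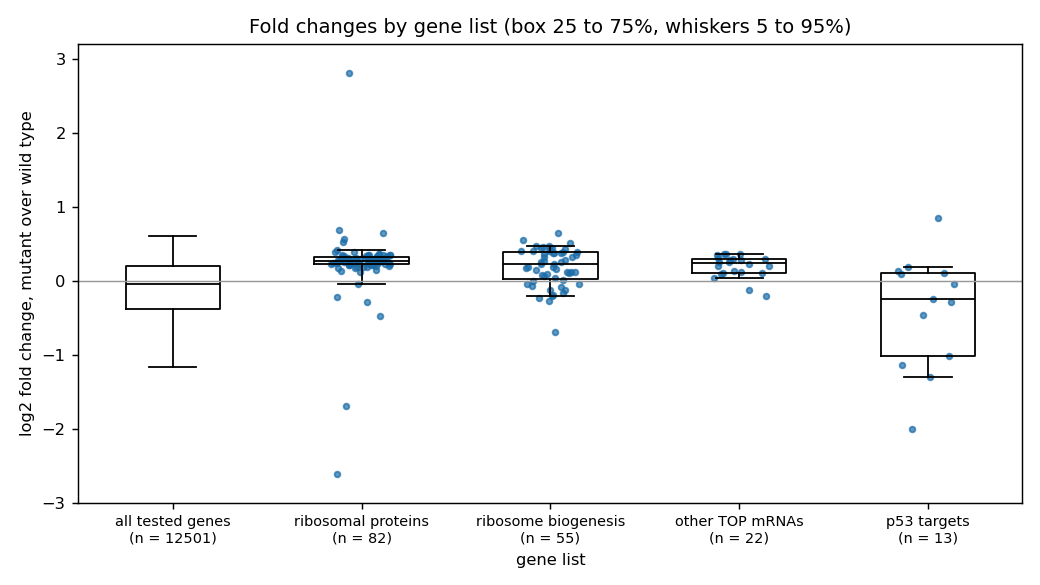
Log2 fold changes of mutant over wild type in all 12501 tested genes and in 4 gene lists (box, quartiles; line, median; whiskers, 5th to 95th percentile; points, genes). The ribosomal proteins are packed tightly around 0.27, ribosome biogenesis genes and other TOP mRNAs centre on 0.23 and 0.24, and p53 targets on -0.25.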

How the data were processed

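Raw read counts per gene were used as the authors deposited them, 1 table for each of the 6 libraries. Per the study's methods, cDNA was made with a SMARTer kit over 15 PCR cycles, reads of 84 bases were mapped with STAR 2.5.2b to mm9, and uniquely mapping reads were counted with featureCounts 1.5.1 (strand setting not given in the sources used here). Groups came from the genotype labels. The test was that of edgeR 4.0.16 (run in R 4.3.3 with TMM, filterByExpr, quasi-likelihood fit on genotype, Benjamini-Hochberg adjustment over 12501 genes). The SE is the log2 fold change divided by the square root of the F statistic. Normalized counts are TMM-scaled. DESeq2 1.42.0 was an alternative. Calls needed 50 or more normalized counts on average, a log2 fold change of 0.5 or more in size and an adjusted p under 0.01. The count of 50 replaced the study's RPKM of 50, and an RPKM of 50 computed here was an alternative. The fit was checked on simulated counts.

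Member transcripts (Gencode M1) were aligned to mm9 with BLAST+ 2.17.0 and cut into windows of 84 bases. Rpl41 had no coding transcript there and was left out of that step. Promoters came from RefSeq (GRCm38.p6). Named genes were the called members, the genes the selection rule names, the paralogue pairs, the 5 highest and 5 lowest members by mean count above 0, uncalled members past the size limit, Fau, Gnb2l1, called list genes and Tcf7l1. Rps12, Rps18, Rpl15, Rps19, Rpl26, Rps19bp1, Ncl, Eef1d, Eif3e and the single markers were also named after their values were seen. Some single-gene results are not reported here. The members, lists and tests were chosen with earlier results of these data known. Same-numbered libraries did not deviate together (correlations 0.0097, -0.045 and -0.018), so numbers were not taken as pairs.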

Additional observations from a re-analysis of the deposited data

How the results depend on the processing

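Rps3a1, Rpl29 and Rpl35a kept their direction and call under every refit run with the same rule for calls. Under the minimum mean RPKM of 50, Rpl29 and Rpl35a were no longer called, leaving 1 member called lower and 2 higher. Members called higher numbered 1 with a log2 fold change of at least 1, 22 with no minimum, and 1 under each length correction (the one centred on 0 was added after seeing the data). The member median was 0.12 under the centred correction, where Rpl22l1 and Rps27 were -0.086 and -0.21, against -0.039 and -0.16 under the other. It lay between 0.22 and 0.36 with each library left out. The member share ratio was 1.18 after TMM scaling. Members higher at an adjusted p under 0.01 numbered 46 with DESeq2, 40 with no filter on low counts, 5 with library size only, 13 and 10 under the length corrections, and 3 to 58 with a library left out. The share of all tested genes passing in each of these fits is not given here.

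The called biogenesis genes numbered 0 with library size only, 1 with the mean filter of 50, 0 at a log2 fold change of at least 1, 19 with no minimum, 7 and 4 under the length corrections and 1 to 8 with a library left out. Called TOP mRNAs numbered 6 with no minimum, called p53 targets 1 at a log2 fold change of at least 1 and 1 under the RPKM minimum, and called Diamond-Blackfan genes 1 at a log2 fold change of at least 1, 6 with no minimum, and 1 each under the RPKM minimum and the length corrections. Genes called higher were 348, and 200 with library size only, 85 at a log2 fold change of at least 1, 902 with no minimum and 106 under the RPKM minimum. Genes called lower were 729, and 284 at a log2 fold change of at least 1, 1178 at an adjusted p under 0.05, 29 under the RPKM minimum and 405 to 867 with a library left out. Both counts under the RPKM minimum lay well below those the study reported with its own, so this minimum may not match the study's. The cause of these changes was not tested.

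With the replicate number as a block, the member median was 0.27 and 10 members were higher at an adjusted p under 0.01. The share of all tested genes passing in that fit is not given here either. No named gene changed call. The libraries share only a number, and the pairing correlations were near 0. Rps27, Rpl30 and Rpl34 had few counts and so wide errors, and the reason for their low counts was not tested.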
